A study of Homo sapiens with 6 samples.

Results

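Insulin receptor substrates, the receptors that phosphorylate or oppose them, and the binding proteins that hold their ligands were examined in RNA-seq of cells labelled H1650, an established human lung adenocarcinoma line. The 10 genes were IRS1, IRS2, IRS4, INSR, IGF1R, IGF2R, IGFBP2, IGFBP3, IGFBP4 and IGFBP6, out of 15897 genes with a value in every library. They were chosen on the measured difference between the same libraries that are described here, so their own values are given as a description without a test. Of the 10 genes, 9 had a mean of at least 0.5 FPKM (fragments scaled to gene length and library size) over the 6 libraries and entered the fit across all genes, and IGFBP3 did not. IRS4 and IGFBP2 passed only through the control libraries and IGFBP6 only through the shSETD2 libraries.

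The 3 control libraries carry the label wild type, and the 3 shSETD2 libraries came from H1650 cells in which lentiviral short hairpin RNA was directed at SETD2, a histone H3 lysine 36 methyltransferase. Stable lines were made with 3 hairpin constructs, but it is not labelled whether shSETD2 libraries 1 to 3 differ in construct or repeat 1 construct. Separate cultures are not stated, so the errors below measure the spread between libraries, which may be technical. Each SD is that of the gene itself, whereas each SE comes from limma and also draws on the spread of other genes. The number of reads behind each FPKM is unknown.

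Insulin and the insulin-like growth factors bind the receptor tyrosine kinases INSR and IGF1R, which phosphorylate IRS proteins on tyrosine. Phosphorylated IRS proteins then recruit phosphoinositide 3-kinase and adaptor proteins, and so link the receptors to AKT, mTOR and FOXO. IGF2R, the cation-independent mannose 6-phosphate receptor, binds IGF2 and delivers it to lysosomes, and the IGFBP proteins hold IGFs outside the cell. In lung adenocarcinoma, IGF1R and IRS proteins are studied as a route of survival signalling beside the epidermal growth factor receptor.

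Facts of the whole series bear on every value below. SETD2 itself had 18.0, 10.2 and 17.6 FPKM in the control libraries, against 8.97, 8.09 and 12.2 FPKM in the shSETD2 libraries, so the groups overlapped (log2 difference -0.58, SE 0.24, adjusted p = 0.0641 in limma), and the libraries are therefore named by their labels. Pearson's r of log2(FPKM + 1) across genes, which are not independent replicates, was between 0.982 and 0.990 for libraries of one label and between 0.701 and 0.707 across labels. Markers of lung epithelium were listed for 2 of 10 genes: KRT7 lay at or below 0.0375 FPKM in the control libraries and between 77.0 and 87.1 FPKM in the shSETD2 libraries, and NKX2-1 lay between 1.44 and 1.80 FPKM in the control libraries and was listed at 0 in every shSETD2 library. The summed FPKM of 8 listed epithelial markers of 10 ranged from 14.4 to 16.4 in the control and from 329.1 to 371.7 in the shSETD2 libraries. KRT8 and KRT18 made up most of that sum, and EPCAM (0.582 to 0.830 against 0.166 to 0.301 FPKM), CDH1 (0.860 to 1.52 against 0.0107 to 0.0140 FPKM) and CLDN7 (0.0920 to 0.266 FPKM against at most 2.39e-05 FPKM) went the other way. The summed FPKM of 9 listed markers of 10 of embryonic kidney lines ranged from 113.7 to 118.6 in the control and from 18.6 to 21.8 in the shSETD2 libraries, where SALL1, LIN28B, NEFL, NEFM and INA were listed at 0. PAX2 (0.578 to 0.911 against 9.49 to 10.5 FPKM) and LHX1 (0.748 to 0.841 against 4.22 to 4.89 FPKM) of that list were higher in the shSETD2 libraries. Fibroblast markers (4 listed of 10) summed to 4.04 to 4.54 FPKM in the control and 0.292 to 0.340 FPKM in the shSETD2 libraries, blood cell markers (2 listed of 8) to at most 2.24 FPKM in any library, and of 8 endothelial markers 0 were listed. The part of these markers in the results was not tested. Whether the cells of both groups differ only in the hairpin was not tested either, and a difference between the cells themselves cannot be told apart from the labels. In bulk RNA, fewer cells of a type and less RNA per cell cannot be told apart.

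The IRS genes changed places between the labels. IRS4 held nearly the whole IRS signal in the control libraries and IRS2 held most of it in the shSETD2 libraries. IRS4 (ENSG00000133124.11_3), a substrate of INSR and IGF1R that was first described in a human embryonic kidney line, lies on the minus strand at chrX:107975712-107979639 of GRCh37, the build of all positions here. Its level was 235.3, 227.6 and 229.7 FPKM in control libraries 1 to 3 and 0.266, 0.271 and 0.323 FPKM in shSETD2 libraries 1 to 3. All control libraries were far above all shSETD2 libraries, and the ratio of the means, 230.9 ± 3.98 to 0.287 ± 0.0316 (SD, n = 3 each), was 804.3. The denominator is near 0 at an unknown depth, so the size of this ratio is uncertain. Expressed as log2(FPKM + 1), a scale that shrinks the change of low genes, the difference was -7.49 (SE 0.040). With 0.01 in place of 1 as the pseudocount it was -9.61. IRS4 ranked at place 73 of the listed genes by mean FPKM in the control libraries and at place 13192 in the shSETD2 libraries, and its difference was at place 2 from the most negative end among the 14068 genes tested.

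IRS2 (ENSG00000185950.8_2; chr13:110405045-110438915, minus strand), the substrate best known for insulin signalling in liver and for cell motility in tumours, differed in the opposite direction. Its level was 2.97, 3.17 and 3.15 FPKM in control libraries 1 to 3 and 16.4, 15.7 and 15.7 FPKM in shSETD2 libraries 1 to 3. Every shSETD2 library was above every control library, with means of 3.10 ± 0.111 and 16.0 ± 0.403 FPKM (SD, n = 3 each) and a ratio of 5.15. The log2(FPKM + 1) difference was 2.05 (SE 0.047).

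IRS1 (ENSG00000169047.5_2; chr2:227596033-227664475, minus strand), the founding member of the family, was also higher in the shSETD2 libraries. Its level was 1.67, 1.85 and 1.63 FPKM in control libraries 1 to 3 and 3.89, 3.93 and 3.67 FPKM in shSETD2 libraries 1 to 3, with no overlap. The means were 1.72 ± 0.116 and 3.83 ± 0.140 FPKM (SD, n = 3 each), a ratio of 2.23, and the log2(FPKM + 1) difference was 0.83 (SE 0.059). IRS1 was therefore the least abundant IRS gene in the control libraries and lay between IRS2 and IRS4 in the shSETD2 libraries.

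As a share of the summed FPKM of the 3 IRS genes, IRS4 took 98.0 ± 0.113% in the control and 1.43 ± 0.184% in the shSETD2 libraries (SD, n = 3 each). The IRS2 share was 1.31 ± 0.0677% in the control and 79.5 ± 0.495% in the shSETD2 libraries, and the IRS1 share was 0.730 ± 0.0573% and 19.1 ± 0.573% (SD, n = 3 each). After quantile normalization, the IRS4 share in the shSETD2 libraries was 2.65%. The sum of the 3 genes was 235.7 ± 3.80 FPKM in the control and 20.1 ± 0.450 FPKM in the shSETD2 libraries, while the sum of IRS1 and IRS2 alone was 4.82 ± 0.193 and 19.8 ± 0.474 FPKM. The difference in IRS1 and IRS2 was thus small in FPKM beside the IRS4 level of the control libraries. The ratio of IRS2 to IRS1 was 1.81 ± 0.111 in the control and 4.17 ± 0.148 in the shSETD2 libraries.

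**Figure D1:**
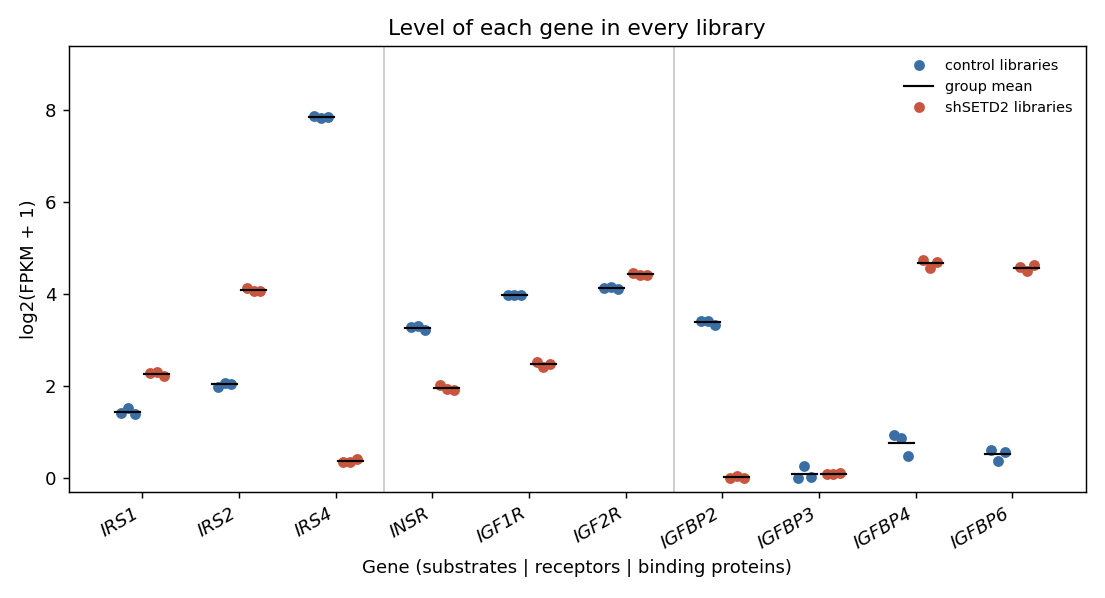
Level of each of the 10 genes in every library as log2(FPKM + 1), with control libraries in blue, shSETD2 libraries in red and a black line at the mean of 3 libraries. IRS4, INSR, IGF1R and IGFBP2 lie higher in the control libraries, IRS1, IRS2, IGF2R, IGFBP4 and IGFBP6 lie higher in the shSETD2 libraries, and IGFBP3 overlaps near 0.

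**Figure D2:**
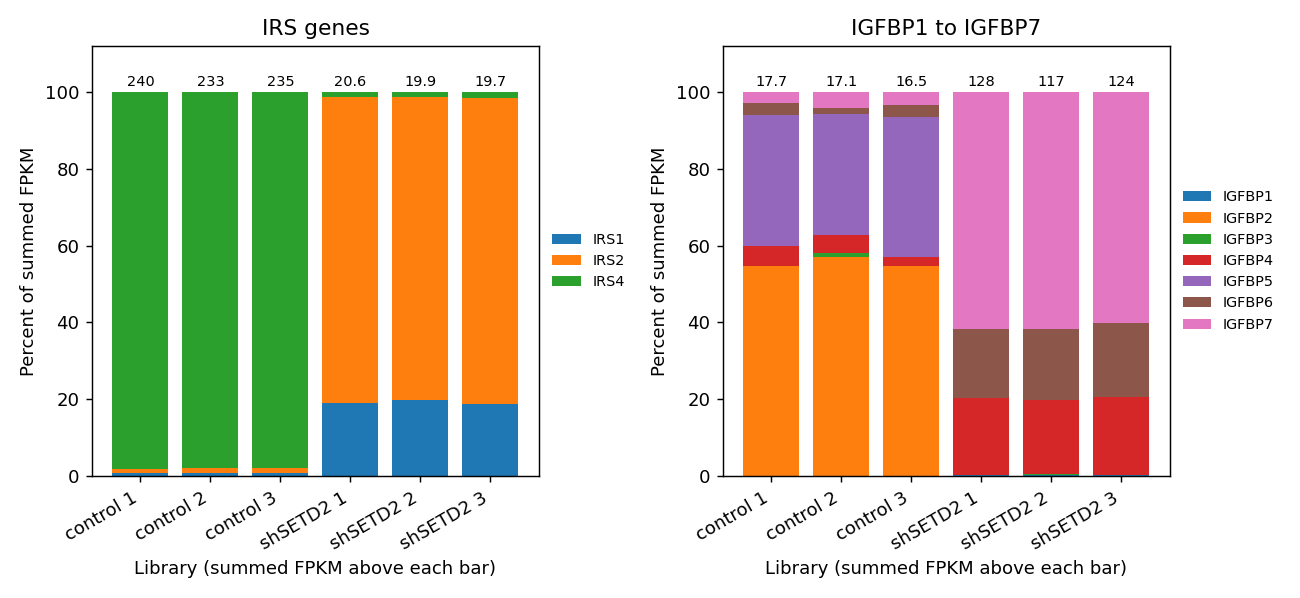
Percent of the summed FPKM held by each IRS gene (left) and by each of IGFBP1 to IGFBP7 (right) in every library, with the summed FPKM above each bar. IRS4 (98.0% on average) gives way to IRS2 (79.5%), and IGFBP2 (55.4%) and IGFBP5 (34.0%) give way to IGFBP7 (61.2%), IGFBP4 (19.9%) and IGFBP6 (18.6%).

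Other genes are listed on the IRS4 strand just downstream of it, and AL035425.2 among them overlaps the end of the deposited IRS4 span. AL035425.3 (chrX:107963179-107968174) was at 125.1 FPKM on average in the control and 0.147 FPKM in the shSETD2 libraries. AL035425.2 (chrX:107965300-107975917) had 69.8, 69.5 and 70.7 FPKM in control libraries 1 to 3, against 0, 0.0754 and 0 FPKM in shSETD2 libraries 1 to 3. AL035425.4 (chrX:107969116-107970178) had a mean of 63.8 ± 2.19 FPKM in the control (SD, n = 3) and of 0.0611 FPKM in the shSETD2 libraries. All of them were high in the control libraries and near 0 in the shSETD2 libraries, as IRS4 was.

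These are separate genes in the deposited table, and the IRS4 model of a newer annotation spans them. Whether that annotation still lists them as genes was not looked up. In GENCODE v44lift37, the canonical IRS4 transcript (ENST00000372129.4_8) spans chrX:107963176-107979793 with 2 exons and covers all of these loci. Its second exon, of 2578 bases, holds only 2 coding bases, and 2575 of its bases lie within AL035425.3. AL035425.2 shares 563 bases with the exons of this transcript, 111 of them coding, and AL035425.4 lies in its intron. The deposited IRS4 span of 3928 bases covers 3831 bases of the first exon, among them its 3766 coding bases. The second exon lies outside that span, and reads of overlapping genes on one strand could have been split between them. By Euclidean distance in log2(FPKM + 1) over the 6 libraries, the genes most like IRS4 were AL035425.3 (1.55), ZNF703 (2.98), which encodes a transcriptional corepressor, and AL035425.2 (3.01). ZNF703 was at 111.1 ± 1.22 FPKM in the control and 2.31 ± 0.0764 FPKM in the shSETD2 libraries (SD, n = 3 each).

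**Figure D3:**
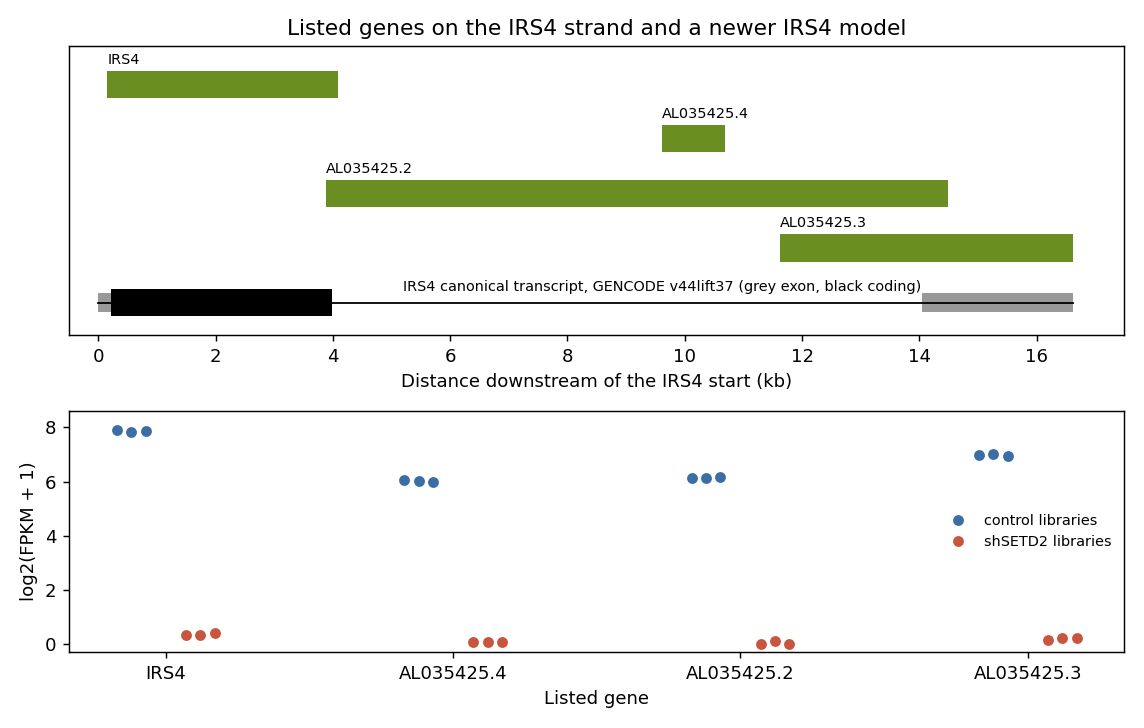
Top, spans of the listed genes on the IRS4 strand and the IRS4 canonical transcript of GENCODE v44lift37, by distance in kb downstream of the start of that transcript. Bottom, log2(FPKM + 1) of each listed gene in every library: the control libraries lie at or above 61.6 FPKM and the shSETD2 libraries at or below 0.323 FPKM for IRS4 and its AL035425 neighbours.

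The promoters of the IRS genes are shown because IRS1 and IRS2 differed in one direction and IRS4 in the other. All 10 genes matched RefSeq promoter windows of the GRCh38.p14 assembly, 250 bases before and 50 bases after a gene start, and each window matched GRCh37 at 1 place, the positions given here. Where a gene had several windows, as IRS4 with 2, the window nearest to the deposited start was used, so that the IRS4 run below lies downstream of the start of the longer canonical transcript. The longest run of letters shared by the IRS1 and IRS4 windows was GTCACGTGTT, 10 bases that include the palindrome CACGTG. It began 34 bases after the IRS1 start and 140 bases before the IRS4 start, and was held, on either strand, by 18 of 35116 windows (0.0513%). The longest exact runs of the other pairs were longer and commoner. They had 11 bases for IRS1 and IRS2 (163 windows, 0.464%) and 13 bases for IRS2 and IRS4 (75 windows, 0.214%), and are not marked below. Allowing 1 different base, the IRS4 and IRS2 windows shared a run of 17 bases, which began 140 bases before the IRS4 start and 49 bases before the IRS2 start. The one difference was G6A, with positions counted from the first base of the run and the IRS4 base first. Runs within 1 base of the IRS4 sequence were in 3 windows (0.00854%), those of IRS4, its antisense neighbour IRS4-AS1 and IRS2. The 17-base run was not in the other IRS4 window. All runs were taken from the IRS windows themselves, so the hits in those windows were fixed in advance. Nothing is read from the shares of windows. These runs were looked for after the windows had been read. They follow 5′ to 3′ on the minus strand, from chr2:227664487-227664516, chr13:110438963-110438992 and chrX:107979731-107979760, with the runs in capitals. The IRS2 capitals include the differing A at position 6, and the IRS1 capitals are the run shared with IRS4.
IRS1: gcgcggaggctccGTCACGTGTTtttctcc
IRS2: tgcgtaacgccgaGTCACATGTTGTTTTGC
IRS4: gcgtgaggctgtgGTCACGTGTTGTTTTGC

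CpG content differed between the IRS promoters. The windows of 300 bases held 47 CpG dinucleotides for IRS1 and 50 for IRS2. For IRS4 they held 26 in the window used above and 23 at the canonical start. All of these are above the median of 14 for all windows. The 250 bases before the start of the canonical transcript held 39 CpG dinucleotides for IRS1, 42 for IRS2 and 16 for IRS4. They are printed 5′ to 3′ on the minus strand from chr2:227664537-227664786, chr13:110438931-110439180 and chrX:107979794-107980043, with each CpG in capitals, so that the sparser IRS4 stretch can be seen.
IRS1: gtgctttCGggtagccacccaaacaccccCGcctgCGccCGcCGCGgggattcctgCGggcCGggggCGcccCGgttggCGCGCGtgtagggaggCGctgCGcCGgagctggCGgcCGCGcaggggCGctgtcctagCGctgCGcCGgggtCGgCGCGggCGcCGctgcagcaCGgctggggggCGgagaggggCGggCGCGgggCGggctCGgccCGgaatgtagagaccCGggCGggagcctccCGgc
IRS2: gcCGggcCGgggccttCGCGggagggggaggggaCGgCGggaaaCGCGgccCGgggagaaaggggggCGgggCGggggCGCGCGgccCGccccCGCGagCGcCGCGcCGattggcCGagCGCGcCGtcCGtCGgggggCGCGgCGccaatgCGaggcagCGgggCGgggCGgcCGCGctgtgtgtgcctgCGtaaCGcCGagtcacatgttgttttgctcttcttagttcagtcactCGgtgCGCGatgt
IRS4: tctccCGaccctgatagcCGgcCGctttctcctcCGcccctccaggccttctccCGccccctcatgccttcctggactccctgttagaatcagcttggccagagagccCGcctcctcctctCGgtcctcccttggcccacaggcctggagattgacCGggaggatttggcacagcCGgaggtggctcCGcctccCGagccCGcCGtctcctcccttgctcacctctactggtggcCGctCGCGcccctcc

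Over the windows of 300 bases, the 10 genes held from 8 CpG (IGFBP2) to 55 CpG (IGF1R), with a median of 36 against 14 for all windows. The palindrome CACGTG, read on both strands, was in 3 of the 10 windows and in 7.26% of all windows. The forkhead motif GTAAACA, also read on both strands, was in 1 of the 10 windows, that of IGFBP6, and in 3.42% of all windows. A match describes the letters of a window and not the binding of a factor.

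Both signalling receptors were lower in the shSETD2 libraries, and in nearly the same proportion. INSR (ENSG00000171105.13_3; chr19:7112266-7294045, minus strand) encodes the insulin receptor. Its level was 8.77, 8.83 and 8.38 FPKM in control libraries 1 to 3 and 3.05, 2.86 and 2.77 FPKM in shSETD2 libraries 1 to 3. The groups did not overlap, with means of 8.66 ± 0.242 and 2.89 ± 0.144 FPKM (SD, n = 3 each), a ratio of control to shSETD2 of 3.00, and a log2(FPKM + 1) difference of -1.31 (SE 0.053).

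IGF1R (ENSG00000140443.13_3; chr15:99192200-99507759, plus strand) encodes the receptor for IGF1 and IGF2. Its level was 14.8, 14.9 and 14.7 FPKM in control libraries 1 to 3 and 4.76, 4.29 and 4.58 FPKM in shSETD2 libraries 1 to 3. The groups did not overlap, with means of 14.8 ± 0.114 and 4.54 ± 0.235 FPKM (SD, n = 3 each), a ratio of control to shSETD2 of 3.26, and a log2(FPKM + 1) difference of -1.51 (SE 0.049). The summed level of INSR and IGF1R was 23.5 ± 0.355 FPKM in the control and 7.43 ± 0.338 FPKM in the shSETD2 libraries. The ratio of IGF1R to INSR was 1.69, 1.69 and 1.75 in control libraries 1 to 3 and 1.56, 1.50 and 1.66 in shSETD2 libraries 1 to 3, so IGF1R was the more abundant receptor in each library and the ratios of the groups did not overlap.

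IGF2R (ENSG00000197081.12_3; chr6:160390131-160534539, plus strand) has no kinase domain and moves mannose 6-phosphate-tagged enzymes and IGF2 to lysosomes. Unlike INSR and IGF1R it was higher in the shSETD2 libraries. Its level was 16.5, 16.9 and 16.2 FPKM in control libraries 1 to 3 and 21.0, 20.3 and 20.4 FPKM in shSETD2 libraries 1 to 3, without overlap. The means were 16.5 ± 0.328 and 20.5 ± 0.389 FPKM (SD, n = 3 each), a ratio of 1.24, and the log2(FPKM + 1) difference was 0.30 (SE 0.039). This was the smallest difference among the 9 genes in the fit, and the scaling moved it from 0.20 after quantile normalization to 0.63 after median ratio scaling.

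The binding proteins changed from one set of genes to another. IGFBP2 (ENSG00000115457.9_3; chr2:217497551-217529159, plus strand), a carrier with an RGD motif that can bind integrins, had 9.69, 9.72 and 9.00 FPKM in control libraries 1 to 3. In shSETD2 libraries 1 to 3 it was listed at 0, 0.0240 and 0 FPKM, and no fold is given. In the control libraries it held 88.8 ± 1.98% (SD, n = 3) of the summed FPKM of IGFBP2, IGFBP3, IGFBP4 and IGFBP6.

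IGFBP4 (ENSG00000141753.6_2; chr17:38599713-38613983, plus strand), which inhibits IGF action until it is cleaved, had 0.900, 0.814 and 0.383 FPKM in control libraries 1 to 3. In shSETD2 libraries 1 to 3 it was at 25.7, 22.7 and 25.0 FPKM, well above every control library. The means were 0.699 ± 0.277 and 24.5 ± 1.58 FPKM (SD, n = 3 each), a ratio of 35.0, and the log2(FPKM + 1) difference was 3.92 (SE 0.13).

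IGFBP6 (ENSG00000167779.7_2; chr12:53491220-53496129, plus strand), which binds IGF2 in preference to IGF1, showed the same pattern. Its level was 0.528, 0.288 and 0.487 FPKM in control libraries 1 to 3 and 23.1, 21.7 and 23.8 FPKM in shSETD2 libraries 1 to 3. Every shSETD2 library was above every control library, with means of 0.434 ± 0.128 and 22.9 ± 1.09 FPKM (SD, n = 3 each), a ratio of 52.6 and a log2(FPKM + 1) difference of 4.06 (SE 0.081). IGFBP4 and IGFBP6 shared the summed FPKM of the 4 IGFBP genes in the shSETD2 libraries almost equally, with 51.6 ± 0.847% and 48.2 ± 0.821% (SD, n = 3).

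IGFBP3 (ENSG00000146674.14_3; chr7:45951844-45961473, minus strand), the main carrier of IGFs in serum, was close to 0 throughout. It was listed at 0, 0.197 and 0.0223 FPKM in control libraries 1 to 3, against 0.0613, 0.0606 and 0.0718 FPKM in shSETD2 libraries 1 to 3. The groups overlapped, and the gene was not fitted because its mean lay under 0.5 FPKM. The summed FPKM of the 4 IGFBP genes was 10.7 ± 0.681 in the control and 47.4 ± 2.57 in the shSETD2 libraries.

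In order of level, the control libraries ran from IRS4 through IGF2R, IGF1R, IGFBP2, INSR, IRS2 and IRS1 to IGFBP4, IGFBP6 and IGFBP3. In this order, the ranges over the libraries overlapped between neighbours for IGFBP4 and IGFBP6 only. In the shSETD2 libraries the order was IGFBP4, IGFBP6, IGF2R, IRS2, IGF1R, IRS1, INSR, IRS4, IGFBP3 and IGFBP2, and again IGFBP4 and IGFBP6 alone overlapped as neighbours. IGF2R kept a place among the first 3 genes in both groups.

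Without overlap between the groups, 5 of the 9 genes fitted lay above in every shSETD2 library and 4 in every control library, against 27.9% and 53.0% of the 14068 genes tested. Nothing is read from these counts, because the same contrast chose the genes. The median log2 difference of all genes tested was -0.29 for the deposited FPKM, -0.11 with quantile normalization and -0.01 with median ratio scaling, and 34.1% of calls were higher as deposited against 49.6% after median ratio scaling. Relative to the median as deposited, IRS1 lay at 1.12, IRS2 at 2.34, IRS4 at -7.20, INSR at -1.02, IGF1R at -1.22 and IGF2R at 0.59 on the log2 scale. Each of the 9 genes kept the sign of its difference under every alternative that could be run.

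Other genes of the same pathway were listed by their known roles. From 7 lists of 129 genes, 115 were listed and 109 tested, of which 38 (34.9%) rose and 50 (45.9%) fell with the shSETD2 label (limma, adjusted p under 0.05), where 26.8% of all genes tested were called higher and 51.8% lower. Their median log2 difference was -0.11, beside -0.29 for all genes tested. After median ratio scaling the split was 50 higher and 34 lower. Of all 14068 genes tested, 5305 were called higher and 5394 lower with that scaling, the background for the scaled splits below. The genes named below as rising or falling in these lists kept their direction under the alternatives in which they were fitted. IGFBP5, HTRA1, GRB7, SHC2, PRKCQ, SESN3 and the neighbour AL161431.1 lay under 0.5 FPKM in every library of a group. They passed the filter only through the group where they were high, so their adjusted p is not read as support.

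Among ligands, receptors and binding proteins, 4 of 8 tested rose, 2 fell and 2 were not called, with a median of 0.51. IGFBP7, a secreted protein related to the IGF carriers, rose from 0.602 ± 0.0975 to 75.3 ± 3.57 FPKM (SD, n = 3 each; log2 difference 5.57, SE 0.064, adjusted p = 1.51e-08 in limma). IGFBP5, another carrier, had 5.80 ± 0.396 FPKM in the control group (SD, n = 3) and was listed at 0 in each shSETD2 library (adjusted p = 1.46e-07 in limma). With these genes included, IGFBP2 and IGFBP5 held 55.4 ± 1.28% and 34.0 ± 2.56% of the summed FPKM of IGFBP1 to IGFBP7 in the control libraries. IGFBP7, IGFBP4 and IGFBP6 held 61.2 ± 0.805%, 19.9 ± 0.434% and 18.6 ± 0.613% in the shSETD2 libraries. The summed level was 17.1 ± 0.618 FPKM in the control and 123.1 ± 5.71 FPKM in the shSETD2 libraries.

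Genes whose products control the cleavage of IGFBP4 were in the same list. STC1, a stanniocalcin that inhibits the IGFBP4 protease PAPPA, rose from 0.502 ± 0.0786 to 33.1 ± 0.561 FPKM (SD, n = 3 each; log2 difference 4.51, adjusted p = 2.26e-08 in limma). PAPPA itself was listed at 0 in every control library and reached 3.03, 2.84 and 3.17 FPKM in shSETD2 libraries 1 to 3. It entered the fit only through the shSETD2 libraries, so no p-value is given for it. STC2, the other stanniocalcin, rose from 25.3 ± 0.524 to 54.8 ± 1.56 FPKM (log2 difference 1.08, adjusted p = 9.03e-07 in limma). PAPPA and STC2 were picked out after their values were seen. HTRA1, a secreted protease that can cleave IGFBP proteins, fell from 5.46 ± 0.527 to 0.0783 ± 0.0197 FPKM (log2 difference -2.58, adjusted p = 3.87e-07 in limma). IGF2, the ligand shared by IGF1R and IGF2R, was at 2.01 ± 0.583 FPKM in the control and 1.86 ± 0.169 FPKM in the shSETD2 libraries and was not called (log2 difference -0.05, SE 0.15, adjusted p = 0.754 in limma). Without control library 1 it was called lower (log2 difference -0.23, adjusted p = 0.0384 in limma), and its sign was positive after each of the 3 scalings.

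Docking and adaptor proteins, which act beside or below the IRS proteins, were divided, with 9 of 22 tested called higher, 10 lower and 3 not called, and a median of -0.31. After median ratio scaling the split was 10 higher and 6 lower. SHC1, the adaptor that links the receptors to RAS without an IRS protein, rose from 7.09 ± 0.306 to 152.8 ± 4.83 FPKM (SD, n = 3 each; log2 difference 4.25, adjusted p = 1.13e-08 in limma). GRB7, an adaptor of receptor tyrosine kinases, rose from 0.0931 ± 0.0798 to 9.42 ± 1.53 FPKM (log2 difference 3.24, adjusted p = 9.72e-07 in limma). SHC2 fell from 3.40 ± 0.280 to 0.113 ± 0.0480 FPKM (log2 difference -1.98, adjusted p = 9.82e-07 in limma). CRKL, an adaptor that binds tyrosine-phosphorylated docking proteins, fell from 45.7 ± 2.32 to 19.3 ± 6.16 FPKM (log2 difference -1.25, adjusted p = 2.48e-03 in limma).

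Of the inhibitors of the receptors and of IRS proteins, 12 of 21 tested rose, 7 fell and 2 were not called, with a median of 0.21. After median ratio scaling 14 were higher and 6 lower. SH2B3, an adaptor that restrains kinase signalling, rose from 3.94 ± 0.241 to 64.9 ± 1.59 FPKM (SD, n = 3 each; log2 difference 3.74, adjusted p = 2.64e-08 in limma). NEDD4, a ubiquitin ligase that acts on IGF1R and IRS proteins, rose from 3.45 ± 0.0855 to 21.2 ± 3.87 FPKM (log2 difference 2.30, adjusted p = 6.92e-06 in limma). PRKCQ, a kinase that phosphorylates IRS1 on serine, fell from 2.42 ± 0.0366 to 0.0810 ± 0.0195 FPKM (log2 difference -1.66, adjusted p = 5.17e-07 in limma). ENPP1, a membrane protein that inhibits INSR, fell from 8.99 ± 0.124 to 4.03 ± 0.346 FPKM (log2 difference -0.99, adjusted p = 1.21e-05 in limma).

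Below the IRS proteins, 3 of 16 genes of PI3K and AKT rose, 6 fell and 7 were not called. PIK3CD, a catalytic subunit, rose from 2.50 ± 0.0712 to 8.44 ± 0.540 FPKM (SD, n = 3 each; log2 difference 1.43, adjusted p = 1.95e-06 in limma), and AKT1 rose from 4.72 ± 0.0789 to 7.71 ± 0.499 FPKM (log2 difference 0.60, adjusted p = 9.46e-05 in limma). PIK3R3, a regulatory subunit of PI3K, fell from 4.26 ± 0.640 to 2.08 ± 0.126 FPKM (log2 difference -0.76, adjusted p = 4.11e-04 in limma). With median ratio scaling this list had 8 higher and 3 lower, and all genes tested had 5305 higher and 5394 lower.

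Of mTOR complexes and targets, 4 of 17 rose (23.5%), 9 fell (52.9%) and 4 were not called, with a median of -0.28. These shares were close to the 26.8% and 51.8% of all genes tested. MLST8, among the 9, had overlapping groups (adjusted p = 0.0496 in limma). After median ratio scaling 6 were higher and 6 lower. RICTOR, the core of mTOR complex 2, rose from 6.14 ± 0.164 to 13.9 ± 1.54 FPKM (log2 difference 1.05), and DDIT4, an inhibitor of mTOR complex 1, rose from 64.9 ± 2.72 to 93.5 ± 1.96 FPKM (log2 difference 0.52). The kinase RPS6KB1 fell from 16.3 ± 0.817 to 7.16 ± 0.510 FPKM (log2 difference -1.09), and the translation repressor EIF4EBP2 fell from 30.1 ± 0.734 to 13.7 ± 0.243 FPKM (log2 difference -1.08). The adjusted p in limma was at most 3.63e-05 for these 4 genes.

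Of FOXO factors and targets, 4 of 18 rose, 12 fell and 2 were not called, with a median of -0.48. After median ratio scaling 4 were higher and 8 lower. SESN3, a stress-induced sestrin, fell from 11.4 ± 0.149 to 0.0817 ± 0.0118 FPKM (SD, n = 3 each; log2 difference -3.52, adjusted p = 2.89e-08 in limma). TXNIP, an inhibitor of thioredoxin and of glucose uptake, fell from 15.2 ± 1.14 to 0.545 ± 0.0454 FPKM (log2 difference -3.39, adjusted p = 9.39e-08 in limma). SOD2, the mitochondrial superoxide dismutase, rose from 2.54 ± 0.114 to 22.2 ± 2.39 FPKM (log2 difference 2.71, adjusted p = 4.50e-07 in limma), and ERBB3, a receptor that itself recruits PI3K, rose from 0.874 ± 0.162 to 5.62 ± 0.374 FPKM (log2 difference 1.82, adjusted p = 2.76e-06 in limma).

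The mannose 6-phosphate system, whose tagged enzymes are the main cargo of IGF2R, had 2 of 7 genes higher (28.6%), 4 lower (57.1%) and 1 not called. These shares were close to the 26.8% and 51.8% of all genes tested. The median was -0.21, and 3 were higher and 3 lower after median ratio scaling. GNPTG, a subunit of the enzyme that makes the tag, rose from 3.65 ± 0.209 to 7.94 ± 0.444 FPKM (log2 difference 0.94, adjusted p = 1.48e-05 in limma), and NAGPA, which uncovers it, rose from 1.14 ± 0.0777 to 2.84 ± 0.958 FPKM (log2 difference 0.81, adjusted p = 7.12e-03 in limma). The sorting adaptors GGA3 and GGA1 fell, from 8.51 ± 1.54 to 4.53 ± 0.991 FPKM (log2 difference -0.78, adjusted p = 4.26e-03 in limma) and from 5.97 ± 1.31 to 3.25 ± 0.259 FPKM (log2 difference -0.70, adjusted p = 4.29e-03 in limma).

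**Figure D4:**
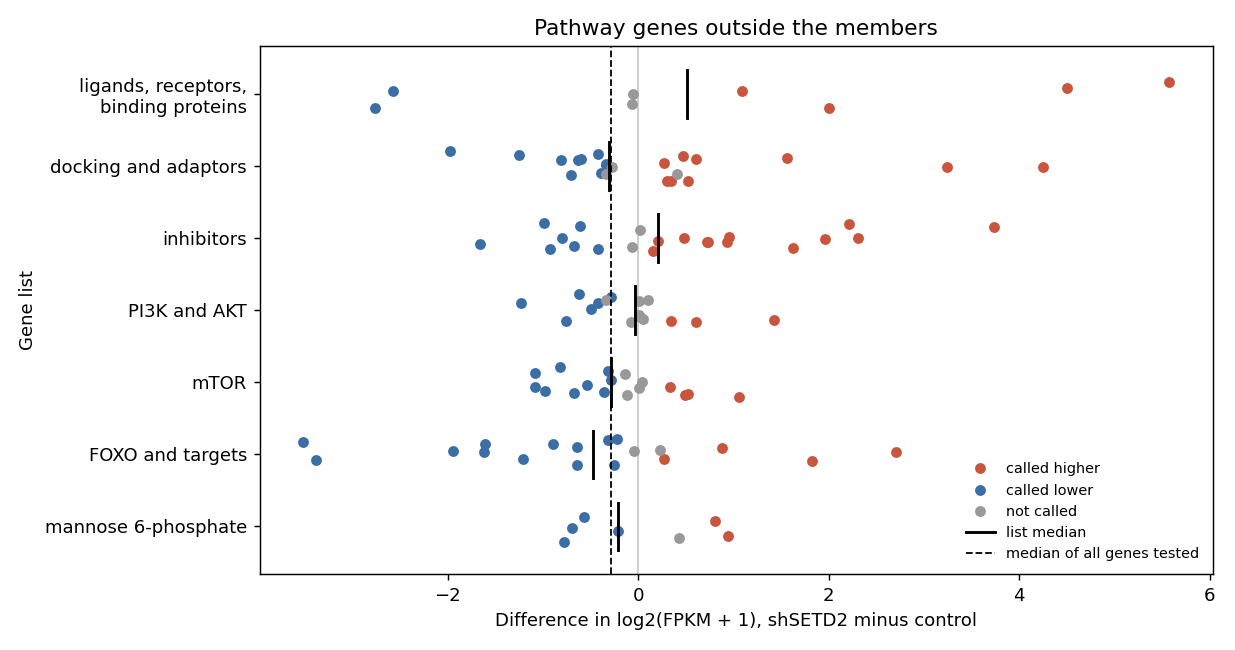
Difference in log2(FPKM + 1), shSETD2 minus control, of the 109 tested pathway genes in 7 lists, with genes called higher in red, lower in blue and not called in grey, the median of each list as a black bar and the median of all genes tested (-0.29) as a dashed line. Of the FOXO genes 12 of 18 are blue, beside 51.8% of all genes tested called lower, and of the inhibitors 12 of 21 are red, beside 26.8% called higher. With median ratio scaling, which is not drawn, 8 FOXO genes were lower and 14 inhibitors higher. Of all 14068 genes tested, 5394 were lower and 5305 higher with that scaling.

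The position of the genes was not used to choose them, and their nearest listed neighbours on either side were followed. Of 20 neighbours, 2 lie inside the canonical transcript of their member, AL035425.4 in IRS4 and AC118658.2 in IGF1R, and are left out of the counts. Of the other neighbours 13 were tested, of which 4 rose (30.8%), 6 fell (46.2%) and 3 were not called, close to the 26.8% and 51.8% of all genes tested. Of the 13, 7 were called in the direction of their member. No share over all genes stands beside that count, so nothing is read from it. TNS3 is among the 13 although its member, IGFBP3, was not fitted. IGFBP2 and IGFBP5 lie 7668 bases apart on chromosome 2, and both were measured in every control library and stood at or below 0.0240 FPKM in every shSETD2 library. NXT2, on the other side of IRS4 from the AL035425 genes and 799370 bases away, was not called (log2 difference 0.05, adjusted p = 0.665 in limma), but was called higher after quantile normalization (0.27, adjusted p = 0.0498) and median ratio scaling (0.34, adjusted p = 0.0254). AL161431.1, the nearest listed gene on one side of IRS2 at a gap of 478858 bases, rose from 0.0242 ± 0.0171 to 43.1 ± 1.70 FPKM (log2 difference 5.43, adjusted p = 7.57e-09 in limma). The collagen gene COL4A1, 362394 bases away on the other side, rose as well (log2 difference 1.46, adjusted p = 1.04e-06 in limma). RHBDD1, 35821 bases from IRS1, and MRPL18, 170662 bases from IGF2R, were not called (adjusted p = 0.900 and 0.746 in limma). MRPL18 was, however, called lower after quantile normalization (-0.23, adjusted p = 6.53e-03 in limma) and higher after median ratio scaling (0.36, adjusted p = 8.83e-04 in limma).

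On one side of IGF1R, 675131 bases away, the arrestin-domain gene ARRDC4 fell from 28.0 ± 0.690 to 0.642 ± 0.0847 FPKM (log2 difference -4.14, adjusted p = 2.88e-08 in limma). AC118658.2, a transcript inside an IGF1R intron, was not called (log2 difference -0.47, adjusted p = 0.206 in limma). Beside INSR, the zinc finger gene ZNF557 fell (log2 difference -0.71, adjusted p = 6.53e-05 in limma), and beside IGFBP2, the ribosomal protein gene RPL37A fell (log2 difference -0.72, adjusted p = 7.73e-06 in limma). IGFBP6 lay between SPRYD3, which rose (log2 difference 1.66, adjusted p = 5.45e-07 in limma), and CSAD, which fell (log2 difference -0.80, adjusted p = 6.50e-05 in limma). TNS3, 1353278 bases from IGFBP3, rose (log2 difference 1.84, adjusted p = 9.08e-07 in limma). TOP2A, the neighbour of IGFBP4, fell with FPKM as deposited (log2 difference -0.26, adjusted p = 1.81e-03 in limma) but stood at 0.09 after median ratio scaling.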

How the data were processed

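RNA of 3 control and 3 shSETD2 libraries was prepared with a stranded kit. The authors aligned reads with HISAT2 (genome hg19, that is GRCh37) and used Ballgown for gene levels (versions not given in the sources used here), and the deposited values are FPKM. Whether counting used strand is not stated. A second deposited table adds the authors' comparison columns (group means of log2(FPKM + 1), fold changes, p-values and q-values), which were not used. Of per-library columns, 0 were left unmatched. Low FPKM showed no common step, so depth is unknown.

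Genes averaging at least 0.5 FPKM were fitted on log2(FPKM + 1) by limma 3.58.1 (R 4.3.3, lmFit, eBayes with trend, 2-sided, Benjamini-Hochberg over all 14068 genes, threshold 0.05). The fit was also run on simulated data in which few genes were changed. Most genes were called here, so that run cannot show how well the p-values hold for these data. An exact permutation test of 3 against 3 libraries allows no p below 0.1, so p-values rest on the limma model. The members and lists were chosen with earlier results of these data known. Named genes were the members, per list at most 2 called genes in each direction with the largest difference and no overlap, the nearest neighbours, the 3 genes nearest to IRS4, SETD2 and the markers. A result that this rule covers is not reported here. Exons came from GENCODE v44lift37 and promoters from RefSeq. Protein sequences were not used here. Alternatives were pseudocounts of 0.1 and 0.01, no filter or a mean of at least 5 FPKM, scaling by median ratio, quantile or upper quartile, no trend, a replicate block and each library left out.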

Additional observations from a re-analysis of the deposited data

How the results depend on the processing

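Under the 15 alternatives, each of the 9 fitted members and of the pathway genes named by rule kept its sign, and those pathway genes stayed past the threshold wherever they were tested. A mean of at least 5 FPKM left 7078 genes, of which 2401 were called higher and 3246 lower, with 24 and 26 of the pathway genes, and it removed IRS1 and IGFBP2 from the fit: fewer genes were tested. Leaving out 1 library gave 3587 to 3704 genes called higher. After quantile normalization the IRS shares were 0.583%, 1.15% and 98.3% for IRS1, IRS2 and IRS4 in the control libraries and 20.7%, 76.7% and 2.65% in the shSETD2 libraries. The cause of these shifts was not tested.

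IGF2 stood at 0.0028 after upper quartile scaling, 0.31 after quantile normalization and 0.18 after median ratio scaling, and ranged from -0.23 to 0.043 with 1 library left out, being called only without control library 1. Some neighbours changed sign, 3 of them uncalled at first: with 1 library left out, RHBDD1 ranged from -0.10 to 0.18, NXT2 from -0.045 to 0.13 and MRPL18 from -0.011 to 0.069 (log2), RHBDD1 being negative without control library 1 or 2, NXT2 without shSETD2 library 2 and MRPL18 without control library 2. MRPL18 stood at -0.23 after quantile normalization, where it was called, and TOP2A at 0.090 after median ratio scaling. Libraries with the same number did not deviate together (r = -0.024, 0.018 and -0.008 across genes), so the numbers were not taken as pairs. A fit with the replicate block called 3733 genes higher and 7243 lower, and 37 and 49 of the pathway genes. The unknown depth limits statements on genes near 0, such as IGFBP3, and IGFBP2 and IRS4 in the shSETD2 libraries. It also limits the ratios of 804.3 for IRS4, 52.6 for IGFBP6 and 35.0 for IGFBP4, whose denominators are low.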
